A study of Mus musculus with 4 samples.

Results

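GABA-A receptors were represented here by 7 subunit genes, selected by name from the 56748 genes in the files. Gabra2, Gabra3, Gabra4 and Gabra5 encode alpha subunits, Gabrb1 and Gabrb2 encode beta subunits, and Gabrd encodes the delta subunit. The rule of selection used no measured value, but earlier results of these data were known when the members were chosen. Each gene was followed in nuclei of the mouse hippocampus, by class of nuclei and by pool, and compared between stress, diet and genotype.

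Single-nuclei RNA-seq (snRNAseq) was run on 8 pools of hippocampi from male mice, with the hippocampi of 3 mice combined in each pool. Repeated social defeat (RSD) exposed mice to an aggressive CD-1 mouse for 2 h on each of 6 nights, and controls were undisturbed. Nuclei were taken on the morning after the last night of RSD, and no later time was sampled. In the diet experiment, purchased C57BL/6 mice of 5 to 7 weeks of age ate vehicle chow (AIN-76A) or chow with PLX5622, an antagonist of CSF1R that depletes microglia, from 7 days before RSD. Its pairs of pools were Control-Vehicle with Stress-Vehicle, and Control-PLX5622 with Stress-PLX5622. In the genotype experiment, mice bred in-house (age not given in the sources used here) were either IL-1R1+/+, which carried no Cre, or nIL-1R1-/-, in which Cre driven by Vglut2 (Slc17a6) deleted Il1r1, the gene of the type 1 receptor of interleukin-1, in glutamatergic neurons. The wild-type pair of pools was Con-IL-1R1+/+ with Stress-IL-1R1+/+, and the knockout pair was Con-nIL-1R1-/- with Stress-nIL-1R1-/-. Each condition was 1 pool, so the replicate of RSD was a pair of control and stress pools that shared diet or genotype, and there were 4 pairs.

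The files held 57350 nuclei, of which 56834 were kept, and no barcode was shared between pools. Depth differed between pools, from 7.53e+06 to 5.81e+07 UMIs in total and from a median of 598.0 to 5012.0 UMIs per nucleus. Both PLX5622 pools were the shallow end of that range, so diet and depth cannot be told apart. Nuclei were named by marker genes, and 11 classes had at least 25 nuclei in every pool. These were DG-like granule neurons (10404 nuclei), CA1-like (8505) and CA2/3-like (5775) pyramidal neurons, subicular-like (2608) and deep-layer excitatory-like neurons (2424), inhibitory neurons (INH) that were Lhx6-like (2963), Vip/Cnr1-like (1718) or neurogliaform-like (887), and astrocyte-like (1351), OPC-like (1078) and oligodendrocyte-like nuclei (2045). A further 14224 nuclei stayed unnamed. Of the markers listed for a class, 4 of 8 (CA1-like) to 7 of 7 (astrocyte-like, oligodendrocyte-like and neurogliaform-like) were highest in that class. Microglia-like nuclei made up 0.156% and 0.176% of the PLX5622 pools and 2.04% to 3.18% of the others.

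GABA-A receptors are chloride channels opened by GABA, the main inhibitory transmitter of the adult brain. Each receptor is a ring of 5 subunits drawn from several gene families, usually with alpha and beta subunits and either a gamma or the delta subunit. Alpha2 is found at synapses and along the axon initial segment, alpha5 in hippocampal pyramidal neurons is largely outside synapses, and alpha4 with delta forms receptors that sense low ambient GABA, best known in dentate granule cells. Alpha3 is sparse in the hippocampus, and beta subunits carry the GABA site together with alpha. RNA of nuclei does not report how much receptor reached the membrane.

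The genes lay in 5 places in the genome (GRCm39, GENCODE vM39). Gabra2 (chr5:71114573-71253662, minus strand), Gabra4 (chr5:71721738-71815722, minus strand) and Gabrb1 (chr5:71815456-72319431, plus strand) formed 1 cluster, in which Gabra4 and Gabrb1 pointed away from each other with their first 267 bases overlapping, while Gabra2 lay 468 kb from Gabra4. UMIs inside that overlap cannot be assigned with certainty, since the use of strand in counting was not given in the sources used here. Gabra5 was at chr7:57055164-57240831 (minus strand), Gabrb2 at chr11:42310493-42523417 (plus strand), Gabra3 at chrX:71476275-71700723 (minus strand) and Gabrd at chr4:155469407-155482872 (minus strand). All 7 are protein-coding. Gabrd spans 13.5 kb, Gabra4 94.0 kb, Gabra2 139 kb, Gabra5 186 kb, Gabrb2 213 kb, Gabra3 224 kb and Gabrb1 504 kb, against a median of 19.3 kb over all protein-coding genes. Exons covered 1.63% (Gabra3) to 14.4% (Gabrd) of the span, and nuclear RNA keeps introns.

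The 250 bases before the start site are printed for 3 members that the results turn on. Gabra2 and Gabrb2 were the pair called lower in DG-like nuclei after RSD in the diet experiment, and Gabra3 was the member nearly missing from the same nuclei. Gabra2 was not called in the deeper cluster of DG-like nuclei alone. Sequences are from RefSeq (GRCm38.p6), 5′ to 3′ on the strand of the gene, and 6 of the 7 members had an entry. Capitals mark the letters TATAAA, those of the TATA box, on either strand.
Gabra2 (chr5:71095850-71096099, minus strand): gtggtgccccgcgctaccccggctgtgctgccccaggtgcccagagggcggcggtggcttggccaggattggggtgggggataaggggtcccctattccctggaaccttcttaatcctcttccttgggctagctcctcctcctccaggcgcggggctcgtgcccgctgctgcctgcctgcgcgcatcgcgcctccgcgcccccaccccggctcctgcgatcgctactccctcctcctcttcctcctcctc
Gabra3 (start site 1 of 2, chrX:72656920-72657169, minus strand): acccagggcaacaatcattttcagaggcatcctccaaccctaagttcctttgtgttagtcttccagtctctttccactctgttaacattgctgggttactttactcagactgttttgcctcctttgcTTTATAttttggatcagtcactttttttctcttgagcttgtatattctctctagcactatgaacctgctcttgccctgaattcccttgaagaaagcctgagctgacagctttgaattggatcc
Gabrb2 (start site 1 of 3, chr11:42420190-42420439, plus strand): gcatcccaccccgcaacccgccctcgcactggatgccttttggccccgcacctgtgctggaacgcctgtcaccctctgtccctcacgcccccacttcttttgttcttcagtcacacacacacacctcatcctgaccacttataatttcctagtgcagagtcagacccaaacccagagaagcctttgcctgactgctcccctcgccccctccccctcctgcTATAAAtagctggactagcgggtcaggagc
The Gabra2 sequence was 70.0% GC with 18 CpG dinucleotides and held no TATAAA. That of Gabra3 was 42.4% GC with 0 CpG, and that of Gabrb2 58.8% GC with 8 CpG. Both held TATAAA, in Gabra3 on the strand opposite to the gene. Of the 3 start sites of Gabrb2, only the printed one held it. Among 32851 such upstream regions, the median was 52.4% GC and 6 CpG, and 12.4% held TATAAA on either strand. TGACGTCA, the cAMP response element, was in 1.55% of them and in none of the upstream sequences of the members. These letters are a description of the window and no site of binding.

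Levels are CPM, the UMIs of a gene scaled to all UMIs summed over the nuclei of a class in a pool, given as mean ± SD over the 8 pools. They are compared here between classes for 1 gene at a time. Gabra2 was highest in DG-like nuclei, at 499 ± 126 CPM (SD, n = 8), followed by CA1-like nuclei at 400.0 ± 99.9 CPM (SD, n = 8). DG-like nuclei were higher in 8 of 8 pools (0.32 log2, exact sign-flip permutation test, two-sided, p = 0.00781, the smallest that 8 pools allow, adjusted p = 0.0365 over 70 neighbouring pairs of classes). CA1-like and CA2/3-like nuclei (382 ± 89.3 CPM, SD, n = 8) did not differ beyond their spread (adjusted p = 0.519, exact permutation test). Deep-layer excitatory-like nuclei at 133 ± 34.2 CPM (SD, n = 8) lay far below the other glutamatergic classes, next to Lhx6-like INH at 128 ± 33.2 CPM (SD, n = 8). Oligodendrocyte-like nuclei were lowest, at 70.6 ± 17.4 CPM (SD, n = 8), below Lhx6-like INH in 8 of 8 pools (adjusted p = 0.0365, exact permutation test).

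**Figure D1:**
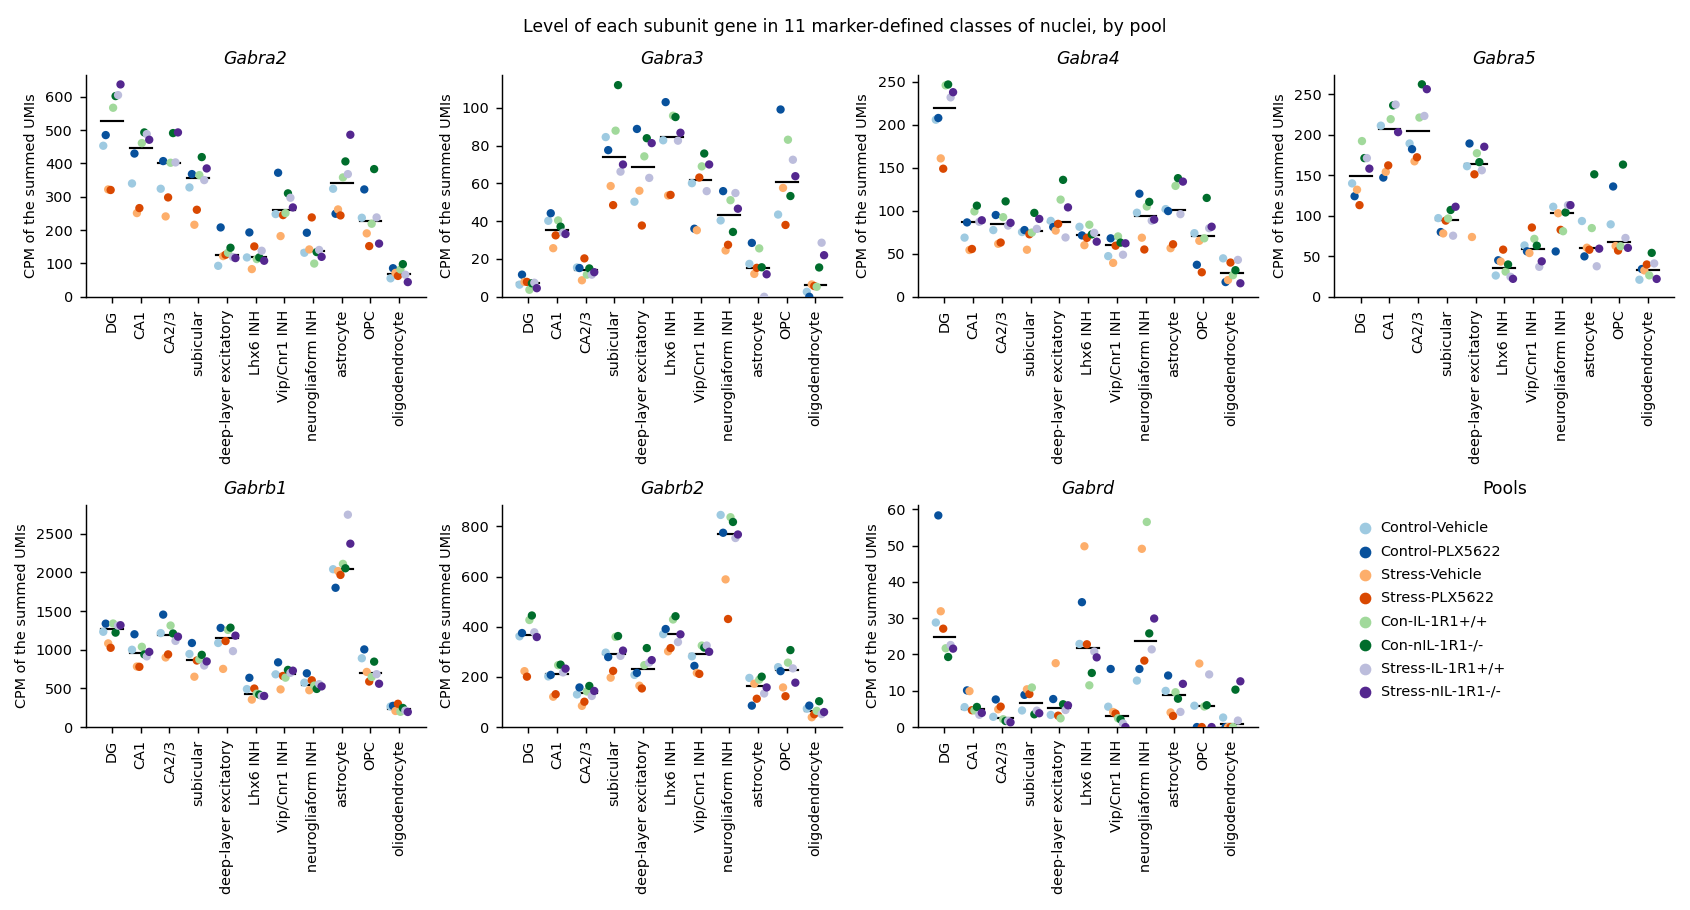
CPM (y axis, linear, from 0) of the 7 subunit genes, 1 panel a gene, in 11 classes of nuclei (x axis); each point is 1 of the 8 pools, coloured by condition, and the black bar is the median of the 8. Gabrb1 stands out in astrocyte-like nuclei (1801 to 2746 CPM) and Gabrb2 in neurogliaform-like INH (431 to 846 CPM).

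Gabra3 had a different map. It was highest in Lhx6-like INH, where Sst and Pvalb were also highest, at 81.7 ± 18.6 CPM (SD, n = 8; OPC-like nuclei were highest by the mean over nuclei of their own CPM), then in subicular-like nuclei at 75.7 ± 19.6 and deep-layer excitatory-like nuclei at 66.9 ± 18.1 CPM (SD, n = 8), and these neighbours did not differ beyond their spread (adjusted p = 0.391 and 0.328, exact permutation test). CA1-like nuclei were intermediate, at 35.9 ± 5.79 CPM (SD, n = 8). CA2/3-like nuclei (13.9 ± 3.46 CPM, SD, n = 8) and DG-like nuclei (7.08 ± 2.41 CPM, SD, n = 8) were lowest among neurons. The DG-like values rested on 9 to 47 UMIs per pool. The only neighbours that differed were CA1-like and astrocyte-like nuclei, with 8 of 8 pools higher in CA1-like nuclei (1.53 log2, adjusted p = 0.0365, exact permutation test).

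Gabra4 was the alpha subunit gene with the sharpest DG pattern. DG-like nuclei held 211 ± 37.8 CPM (SD, n = 8), with pools between 149 and 247 CPM, and every other tested class averaged between 29.5 and 102 CPM. Among classes too uneven between pools to be tested, Slc17a6 excitatory-like nuclei held 342 and medium spiny-like nuclei 234 CPM with all pools summed. The step from DG-like to astrocyte-like nuclei, the next class, was 1.08 log2 with 8 of 8 pools in the same direction (adjusted p = 0.0365, exact permutation test). From astrocyte-like nuclei down to Vip/Cnr1-like INH at 57.3 ± 10.9 CPM (SD, n = 8), no neighbours differed beyond their spread. Gabra5 was highest in CA2/3-like (209 ± 36.7 CPM) and CA1-like nuclei (196 ± 36.6 CPM, SD, n = 8), which did not differ beyond their spread (adjusted p = 0.365, exact permutation test). Deep-layer excitatory-like nuclei at 157 ± 36.5 CPM and DG-like nuclei at 150.2 ± 27.0 CPM (SD, n = 8) came next, and DG-like nuclei were above neurogliaform-like INH (95.4 ± 20.4 CPM) in 8 of 8 pools. Lhx6-like INH held the least Gabra5 of the neuronal classes, 36.3 ± 12.4 CPM (SD, n = 8), below Vip/Cnr1-like INH in 8 of 8 pools (0.72 log2, adjusted p = 0.0365, exact permutation test).

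Gabrb1 was highest in astrocyte-like nuclei. It reached 2138 ± 292 CPM (SD, n = 8) there, against 1233 ± 121 in DG-like, 1164 ± 183 in CA2/3-like, 1117 ± 182 in deep-layer excitatory-like and 953 ± 137 CPM in CA1-like nuclei (SD, n = 8). Astrocyte-like nuclei were above DG-like nuclei in 8 of 8 pools (0.79 log2, adjusted p = 0.0365, exact permutation test). Among INH, the order was Vip/Cnr1-like (684 ± 100 CPM), neurogliaform-like (557 ± 69.5 CPM) and Lhx6-like (455 ± 87.6 CPM, SD, n = 8), with both steps in the same direction in 8 of 8 pools (adjusted p = 0.0365, exact permutation test). Gabrb2 was highest in neurogliaform-like INH, at 727 ± 145 CPM (SD, n = 8), which was 0.95 log2 above Lhx6-like INH (370.0 ± 50.3 CPM, SD, n = 8) and higher in 8 of 8 pools (adjusted p = 0.0365, exact permutation test). DG-like nuclei held 346 ± 88.6 CPM, CA1-like nuclei 201 ± 49.5 CPM and CA2/3-like nuclei 131 ± 27.2 CPM of Gabrb2 (SD, n = 8).

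Gabrd was highest in 3 classes, DG-like nuclei at 28.9 ± 12.6 CPM, neurogliaform-like INH at 28.7 ± 15.9 CPM and Lhx6-like INH at 24.5 ± 12.2 CPM (SD, n = 8), which did not differ beyond their spread (adjusted p = 0.867 and 0.767, exact permutation test). Lhx6-like INH were above the next class, astrocyte-like nuclei (8.09 ± 4.05 CPM, SD, n = 8), in 8 of 8 pools (1.50 log2, adjusted p = 0.0365, exact permutation test). Counts were small. Neurogliaform-like INH gave 2 to 21 Gabrd UMIs per pool, and in OPC-like nuclei 3 pools had 0, which allows up to 37.2 CPM in Control-PLX5622, 28.5 in Stress-PLX5622 and 10.6 in Stress-nIL-1R1-/-. These limits cover counting error only.

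Of the 70 neighbouring pairs of classes over the 7 genes, 15 differed, all at the smallest p that 8 pools allow. With nuclei thinned to 500 UMIs 0 differed at the adjusted threshold, and 0 when any 1 pool was left out, where 7 pools cannot reach that p. Thinning left out the nuclei under 500 UMIs. Levels in glia were read beside Syt1, a gene of neurons. Oligodendrocyte-like nuclei held Syt1 at a median of 22.4% of the mean over the granule and both pyramidal classes. Of the 7 members, 5 stood below that, from 9.69% (Gabrd) to 21.3% (Gabrb1), and whether these levels were background was not tested. Gabrb2 stood at 29.6% (21.6% to 36.0% over pools) and Gabra3 at 37.3% (0% to 162%), and both ranges overlapped that of Syt1 (16.9% to 33.5%). Astrocyte-like nuclei held Syt1 at 55.2%, and Gabra5 there (39.4%) was not above it, while Gabrb1 stood at 194% (135% to 247% over pools). The range of Syt1 there was 41.9% to 69.7%. The members apart from Gabra5 and Gabrb1 had medians of 68.4% (Gabrd) to 81.8% (Gabra4), with ranges that overlapped that of Syt1. OPC-like nuclei held Syt1 at 60.1% (37.1% to 72.1% over pools) and Gabrb2 at 95.9% (72.2% to 111%). Gabra3 stood at 393% (188% to 447%), or 63.9 ± 20.4 CPM (SD, n = 8), and the remaining members at 39.8% (Gabra5) to 69.9% (Gabrb1). Whether that Gabra3 was background from Lhx6-like and subicular-like neurons, which hold similar levels, was not tested.

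The share of each gene among the UMIs of the 7 depends on how gene length is treated. By UMIs, Gabrb1 had the largest share in 10 of 11 classes, from a median of 37.5% in Lhx6-like INH to 75.4% in astrocyte-like nuclei, and Gabrb2 had it in neurogliaform-like INH (44.5%, range 29.6% to 47.6% over pools). Gabrb1 is also the longest of the 7. After division by gene span in kb, Gabra2 had the largest share in 6 classes, among them CA1-like (34.8%, range 29.2% to 39.2%), CA2/3-like (33.1%) and DG-like nuclei (27.5%). Gabrb1 then led in 3 classes, with 42.4% in astrocyte-like nuclei, and Gabrb2 in both Lhx6-like (25.9%) and neurogliaform-like INH (38.3%). Division by transcript length left Gabrb1 first in 9 classes and Gabrb2 in 2. On the span scale, Gabrd, with the shortest gene, held 25.2% in Lhx6-like INH, 19.1% in neurogliaform-like INH and 14.6% in DG-like nuclei, against 2.33% to 6.23% in the other 8 classes.

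**Figure D2:**
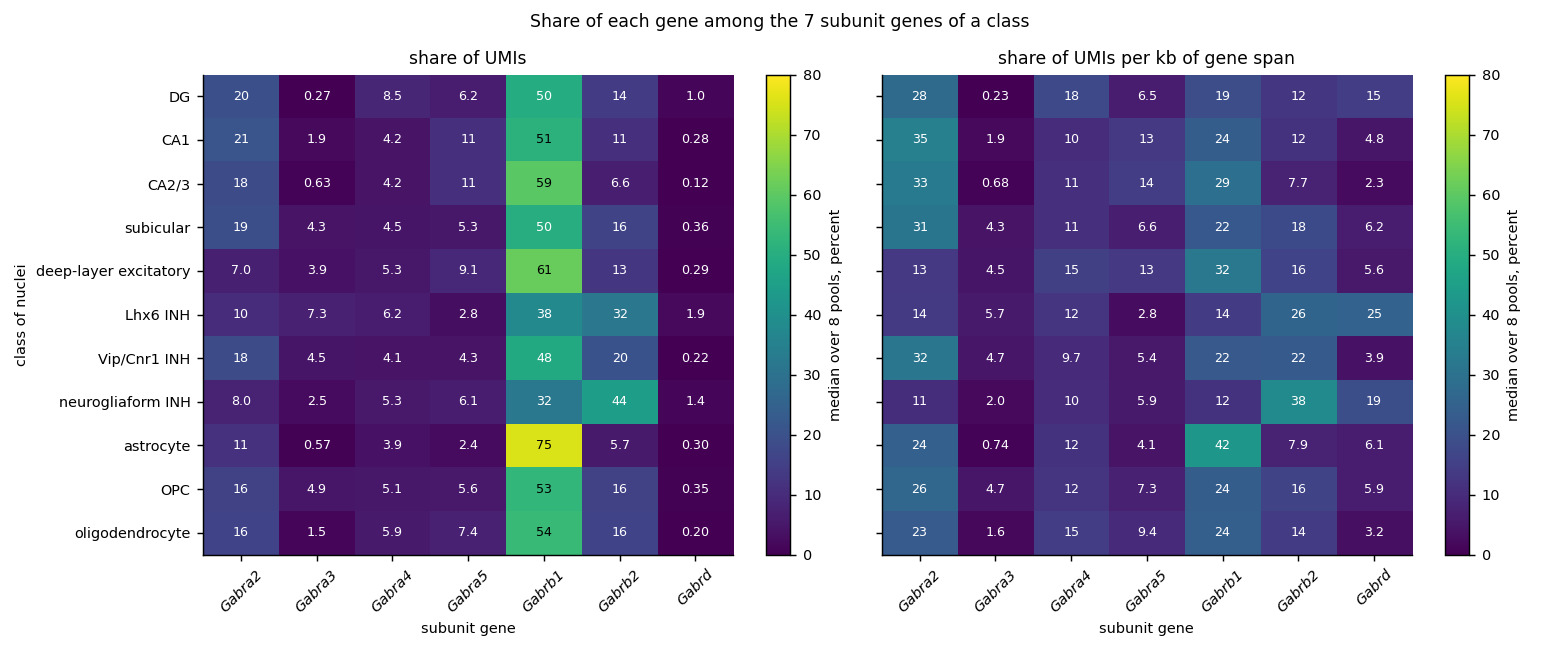
Median share (percent, over 8 pools) of each gene (x axis) among the 7 subunit genes in 11 classes (y axis), by UMIs on the left and by UMIs per kb of gene span on the right; colour runs from 0 to 80%. Gabrb1 leads 10 of 11 classes by UMIs, and Gabra2 leads the DG, CA1 and CA2/3 rows per kb of span.

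Within the alpha genes, and per kb of span, Gabra2 held 53.5% in DG-like, 57.9% in CA1-like and 56.8% in CA2/3-like nuclei, but 29.7% in deep-layer excitatory-like nuclei, where Gabra4 held 34.2% and Gabra5 28.5%. Gabra4 held 34.1% in DG-like nuclei (31.7% to 35.9% over pools) and 17.2% in CA1-like nuclei (15.8% to 18.5%), so the ranges did not overlap. Its share was as high in neurogliaform-like INH (37.0%, 20.4% to 44.8%) and Lhx6-like INH (34.6%, 26.7% to 38.9%). Gabra3 held 16.4% in Lhx6-like INH and 0.442% in DG-like nuclei. The order within the alpha genes depends on the scale. Per kb of transcript, Gabra5 led in deep-layer excitatory-like nuclei (44.5%, Gabra4 21.5%), as it did by UMIs (36.8%, Gabra4 22.0%). In CA2/3-like nuclei, per kb of transcript, Gabra5 (42.7%) and Gabra2 (41.6%) were close. Gabra2 led in DG-like and CA1-like nuclei on each scale. These proportions concern the 4 alpha genes measured here and not the whole receptor family.

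RSD was compared first over all 4 pairs of pools. Of 77 combinations of member and class, 68 passed the filter on low counts (Gabrd in 4 classes, Gabra3 in 9, the others in 11). None of the 68 was called at an adjusted p under 0.05 in edgeR, where 0.183% of all gene and class combinations were called. At an unadjusted p under 0.05, 25 were lower (4.94% of all) and 1 was higher (6.37%) after RSD, and 62 of 68 log2 fold changes were below 0 (49.8% over all genes), with a median of -0.23. DESeq2 called 1, Gabrb2 in DG-like nuclei (-0.53 log2, adjusted p = 0.0482).

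Gabrb2, which pairs with many alpha subunits, showed the lowest p. In DG-like nuclei it stood at 362 CPM in Control-Vehicle and 223 in Stress-Vehicle, 375 in Control-PLX5622 and 201 in Stress-PLX5622, then 427 (control) and 378 (stress) in the IL-1R1+/+ pair, and 445 (control) and 359 CPM (stress) in the nIL-1R1-/- pair. The stress pool was the lower of its pair 4 of 4 times, while the stress pools of the genotype experiment, at 359 and 378 CPM, lay close to the controls of the diet experiment. The fitted change was -0.52 log2 (SE 0.13, adjusted p = 0.104, edgeR). Gabrb2 was also -0.43 log2 in CA1-like (SE 0.14, adjusted p = 0.151), -0.41 in CA2/3-like (SE 0.13, adjusted p = 0.127) and -0.32 log2 in Lhx6-like INH (SE 0.11, adjusted p = 0.293, edgeR), each with 4 of 4 pairs lower.

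The other members ranked below it. Gabra3 in subicular-like nuclei was -0.57 log2 (SE 0.16, adjusted p = 0.172, edgeR), with values of 84.5 and 58.6, 77.6 and 48.5, 87.9 and 66.2, and 112 and 70.0 CPM in the control and stress pools of the vehicle, PLX5622, IL-1R1+/+ and nIL-1R1-/- pairs, so that 4 of 4 pairs were lower. Gabra5 in astrocyte-like nuclei was -0.83 log2 (SE 0.28, adjusted p = 0.191, edgeR), from 7 to 75 UMIs per pool, with the PLX5622 pair in the opposite direction. Gabrd in Lhx6-like INH was the only member higher at an unadjusted p under 0.05 (0.59 log2, SE 0.24, adjusted p = 0.413, edgeR), with 3 of 4 pairs higher and the PLX5622 pair lower. Over all members, the stress pool was lower in 4 of 4 pairs for 24 of 68 combinations (35.3%), against 9.32% of all gene and class combinations. Gabrb2 gave 8 of those 24, Gabra4 7, Gabrb1 4, Gabra3 3, Gabra2 1 and Gabra5 1. Over the same 4 pairs, genes that span at least 100 kb had class medians of -0.10 to -0.02 log2, against 0.02 to 0.08 among shorter genes. All members but Gabra4 (94.0 kb, just under that limit) and Gabrd (13.5 kb) are that long, and the part of span in these counts was not tested.

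**Figure D3:**
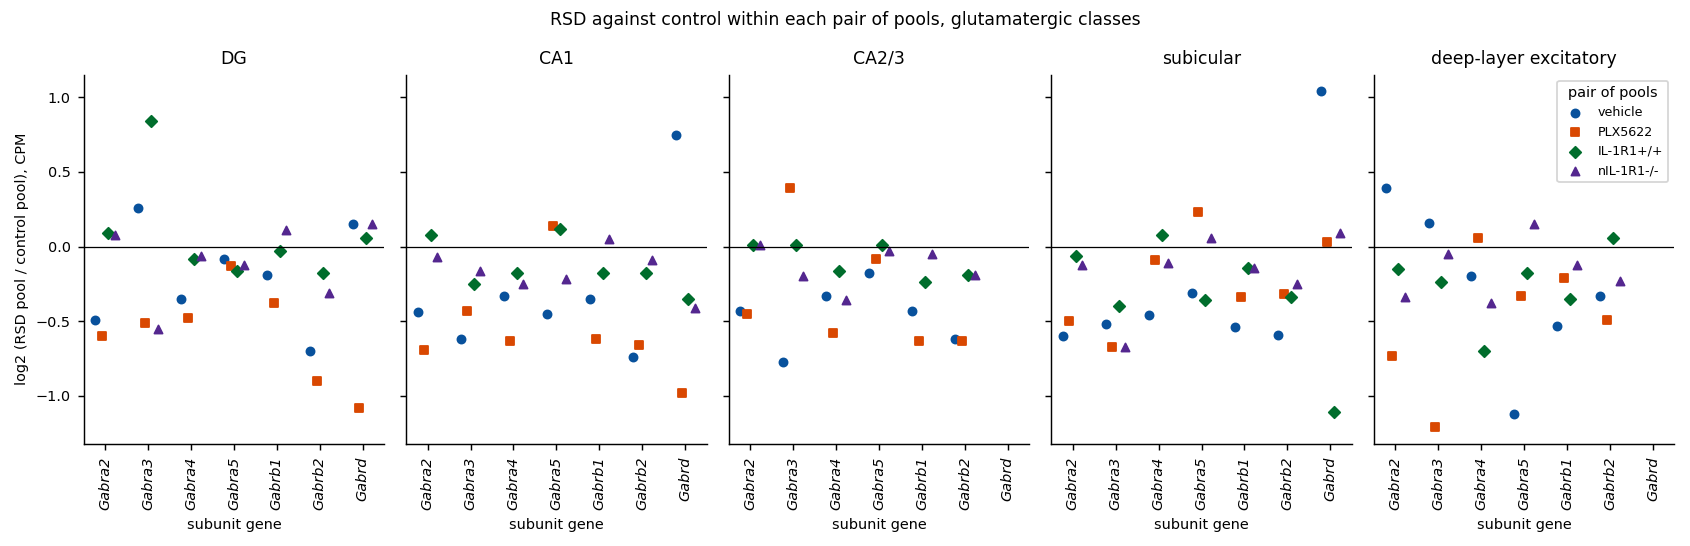
Log2 ratio of CPM (y axis) of the stress to the control pool in each of the 4 pairs (symbols) for the subunit genes (x axis) in 5 glutamatergic classes; combinations that failed the filter on low counts have no symbol. Gabrb2 lies below 0 in all 4 pairs in subicular-like, granule and both pyramidal classes, with the vehicle and PLX5622 pairs lowest in DG-like, CA2/3-like and CA1-like nuclei.

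The 2 experiments were then given an RSD term each, an alternative added after the data were seen. In the diet experiment 10 of 68 combinations were called lower and 0 higher in edgeR, against 1.75% of all gene and class combinations called lower and 4.29% called in either direction. In the genotype experiment 0 of 68 were called (0.197% of all, 7 at an unadjusted p under 0.05, all lower against 2.91% of all, and 0 called by DESeq2). The difference between the 2 terms was called for 0 of 68 in edgeR (0.411% of all, smallest adjusted p = 0.0753, 17 at an unadjusted p under 0.05 against 9.30% of all, and 0 called by DESeq2), so the experiments were not shown to differ.

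Gabra2 fell in 4 classes in the diet experiment. In CA1-like nuclei it was at 339.9 CPM in Control-Vehicle and 251 in Stress-Vehicle, and at 429.6 CPM in Control-PLX5622 and 266 in Stress-PLX5622, a change of -0.60 log2 (SE 0.14, adjusted p = 0.00134, edgeR). The IL-1R1+/+ pair held 461 (control) and 488 CPM (stress) and the nIL-1R1-/- pair 493 and 471 CPM, with a fitted change of -0.00 log2 (95% interval of -0.26 to 0.26). In DG-like nuclei the values were 453 and 322 CPM in the vehicle pair and 485 and 320.3 CPM in the PLX5622 pair (-0.60 log2, SE 0.14, adjusted p = 0.0163, edgeR). Gabra2 also fell in CA2/3-like nuclei by 0.48 log2 (adjusted p = 0.00998) and in subicular-like nuclei by 0.61 log2 (adjusted p = 0.0344, edgeR).

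The beta genes fell with it. Gabrb2 fell by 0.84 log2 in DG-like nuclei (SE 0.14, adjusted p = 9.3e-04), by 0.75 in CA1-like (SE 0.15, adjusted p = 2.5e-04) and by 0.66 log2 in CA2/3-like nuclei (SE 0.15, adjusted p = 0.00450, edgeR). In CA1-like nuclei its pools were 202 and 121 CPM in the vehicle pair, 208 and 131 in the PLX5622 pair, 247 and 218 in the IL-1R1+/+ pair and 249 and 233 CPM in the nIL-1R1-/- pair. Gabrb1 fell by 0.53 log2 in CA1-like (999.7 and 783, then 1200 and 779 CPM, adjusted p = 0.00240), by 0.57 in CA2/3-like (1215 and 900.1, then 1454 and 939.9 CPM, adjusted p = 0.00115) and by 0.50 log2 in subicular-like nuclei (945 and 651, then 1087 and 860.4 CPM, adjusted p = 0.0415, edgeR). Both stress pools of the diet experiment were below both of its controls in each of these. Gabra4 in DG-like nuclei was at -0.46 log2 (adjusted p = 0.0760) and Gabra5 in CA1-like nuclei at -0.24 log2 (95% interval of -0.56 to 0.08, adjusted p = 0.332), neither called.

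**Figure D4:**
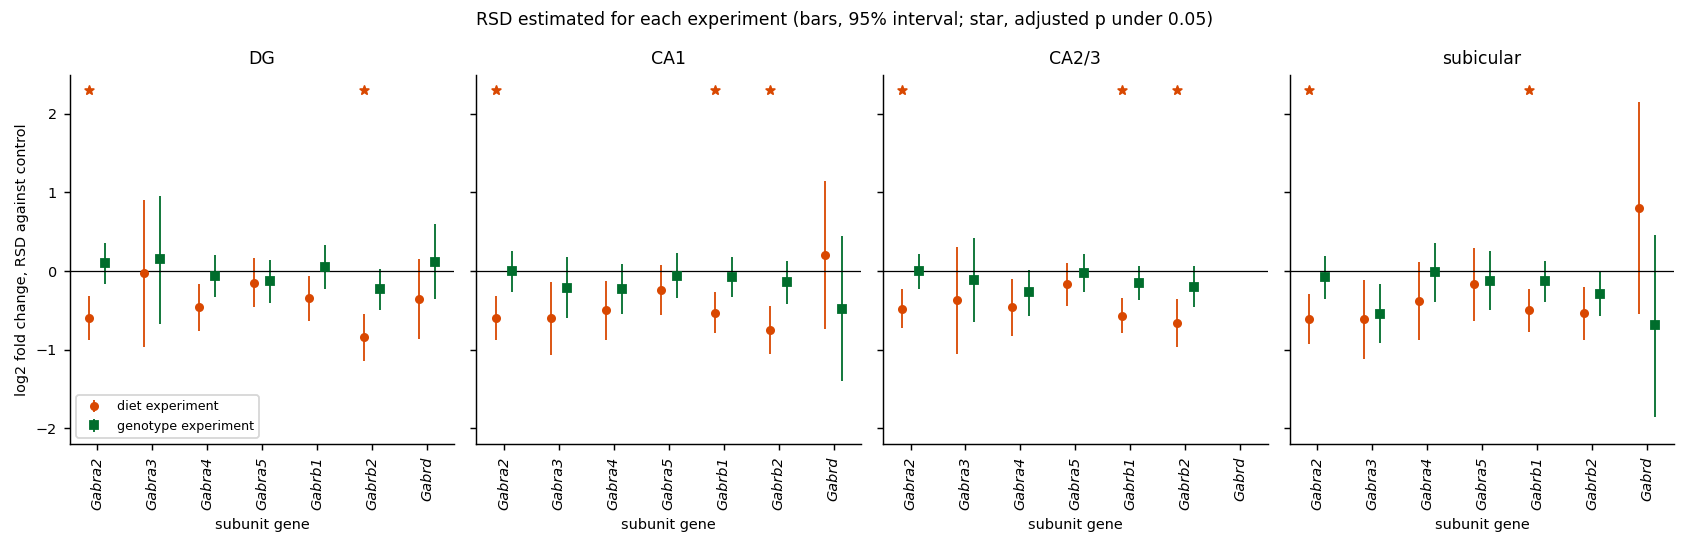
RSD log2 fold change (y axis, edgeR) of each subunit gene (x axis) in 4 classes, estimated for the diet experiment (circles) and the genotype experiment (squares); bars are 95% intervals and stars mark an adjusted p under 0.05. All 10 stars belong to the diet experiment and to Gabra2, Gabrb1 or Gabrb2.

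Several other measures moved with RSD in the diet experiment, and their part in the result was not tested. In CA1-like nuclei, 18.7% of genes that span at least 100 kb were called lower and 3.59% higher, with a median of -0.18 log2, against 3.06% lower and 10.5% higher, with a median of 0.07, among shorter genes. The shares called lower were 14.8% and 1.98% in CA2/3-like, 4.24% and 0.364% in DG-like, and 4.86% and 0.244% in subicular-like nuclei. Gabra2, Gabrb1 and Gabrb2 all span over 100 kb. Syt1 in CA1-like nuclei was at 2738 and 2250 CPM in the vehicle pair and 2942 and 2223 CPM in the PLX5622 pair, while in the genotype pools it stayed between 2837 and 2926 CPM. In DG-like nuclei, where Gabra2 and Gabrb2 fell, Syt1 was at 2268 and 2372 CPM in the vehicle pair and 2281 and 2266 CPM in the PLX5622 pair.

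The make-up of the classes also shifted. CA1-like, CA2/3-like and DG-like nuclei each came from a deeper and a shallower cluster. The deeper one held 56.8% of CA1-like nuclei in Control-Vehicle and 12.3% in Stress-Vehicle, and 9.12% in Control-PLX5622 and 3.14% in Stress-PLX5622, against 67.6% to 86.7% in the genotype pools. In DG-like nuclei it held 69.4% and 36.9% of the vehicle pair and 17.0% and 9.24% of the PLX5622 pair. In the deeper clusters alone, which exist for these 3 classes, 4 of 19 combinations were called, against 8 of 20 in the whole classes. Gabrb1 in CA1-like nuclei was then at -0.27 log2 (adjusted p = 0.280) and Gabrb2 there at -0.56 log2 (adjusted p = 0.0946, edgeR). Neither was called, nor were Gabra2 in DG-like and Gabrb2 in CA2/3-like nuclei. With nuclei of at least 500 UMIs thinned to 500 and the others left out, 5 of 42 were called. Over all classes, the nuclei under 500 UMIs numbered 457 in Control-Vehicle, 1230 in Stress-Vehicle, 2978 in Control-PLX5622 and 2805 in Stress-PLX5622. The genotype pools had 0 to 229 of them. Gabra2 in CA1-like nuclei was called in each of the 8 alternatives to which the diet term was put. Gabrb2 in DG-like nuclei was called in each that refitted its class. The lower least score for a class name refitted only 1 class, CA1-like, and could not change that call. The median share of mitochondrial UMIs was 0.229% in Stress-PLX5622 and 0.0915% to 0.124% in the other 7 pools.

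PLX5622 was compared with vehicle chow, 2 pools against 2. In edgeR 0 of 68 combinations were called (0.0280% of all were), 12 had an unadjusted p under 0.05, of which 11 were higher with PLX5622 (3.29% of all), and DESeq2 called 0. The median was 0.24 log2. Lhx6-like INH gave the lowest p, with Gabra2 at 118 and 83.0 CPM in the vehicle pools (control, then stress) and 193 and 151 CPM in the PLX5622 pools (0.82 log2, SE 0.22, adjusted p = 0.437, edgeR). The genotype pools spanned 108 to 138 CPM. Gabrb1 in the same nuclei was at 491 and 355 CPM against 637 and 498 CPM (0.50 log2, SE 0.17, adjusted p = 0.655, edgeR). These PLX5622 values rested on 73 Gabra2 UMIs in each pool, and depth moved with diet throughout.

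Whether RSD acted differently under PLX5622 was asked of the PLX5622 pair against the mean of the other 3. Those included both pairs of the genotype experiment, so diet and experiment are mixed in this interaction. The interaction was called for 0 of 68 combinations in edgeR (0.156% of all), with 8 at an unadjusted p under 0.05, all lower (4.19% of all), and 0 by DESeq2. Gabrd in DG-like nuclei had the lowest p (-1.37 log2, SE 0.38, adjusted p = 0.134, edgeR). It was at 58.3 CPM (45 UMIs, 95% Poisson interval of 42.5 to 77.9) in Control-PLX5622 and at 27.1 CPM (31 UMIs, 18.4 to 38.4) in Stress-PLX5622, and the other 6 pools lay between 19.3 and 31.9 CPM. Control-PLX5622 was the 1 pool that stood apart.

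The deletion was checked on Il1r1 itself, the gene removed. In DG-like nuclei Il1r1 was at 62.1 CPM in the IL-1R1+/+ control pool and at 11.5 CPM in its nIL-1R1-/- counterpart, and after RSD at 29.99 CPM (93 UMIs) with IL-1R1+/+ and at 9.09 CPM (24 UMIs) with nIL-1R1-/-. The stressed IL-1R1+/+ pool was itself below its control. CA1-like nuclei held little of it in any pool, 1.17 to 5.52 CPM. The subunit genes gave 0 of 68 calls for nIL-1R1-/- against IL-1R1+/+ in edgeR (0.00233% of all), 3 at an unadjusted p under 0.05, all higher (1.16% of all), and 0 by DESeq2. In DG-like nuclei of the 4 genotype pools, Gabra4 stood between 232 and 247 CPM, Gabrb1 between 1221 and 1339 CPM and Gabra2 between 567 and 637 CPM. The 3 lowest p-values were Gabra5 in astrocyte-like (0.76 log2, SE 0.35, adjusted p = 0.782) and OPC-like nuclei (0.74 log2, SE 0.33, adjusted p = 0.999, and -0.03 log2 without Con-nIL-1R1-/-) and Gabra4 in deep-layer excitatory-like nuclei (0.48 log2, SE 0.21, adjusted p = 1.00, edgeR).

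The interaction of RSD with the deletion set the nIL-1R1-/- pair against the mean of the other 3 pairs, of which 2 came from the diet experiment, so genotype and experiment are mixed in it. It was called for 0 of 68 combinations in edgeR (0.0350% of all), with 4 at an unadjusted p under 0.05, all lower (2.96% of all), and 0 by DESeq2. Gabra2 in OPC-like nuclei had the lowest p (-1.04 log2, SE 0.39, adjusted p = 0.219, edgeR), from 219 and 238 CPM in the IL-1R1+/+ pair and 383 and 159.5 CPM in the nIL-1R1-/- pair. The Stress-nIL-1R1-/- value rested on 45 UMIs. Against the IL-1R1+/+ pair alone, it was -1.44 log2 (adjusted p = 0.0877, edgeR), and again 0 of 68 were called.

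GABA-related genes outside the receptor were read from a list of 39, covering synthesis and transport, anchoring and trafficking, the GABA-B receptor, chloride transporters and neurosteroid synthesis, of which 34 could be tested in 306 combinations. Over 4 pairs, where 0.183% of all were called, 1 rose, Shisa7 in deep-layer excitatory-like nuclei (0.70 log2, SE 0.16, adjusted p = 0.0366), an auxiliary protein of GABA-A receptors, and 1 fell, Kctd16 in astrocyte-like nuclei (-0.70 log2, SE 0.16, adjusted p = 0.0385, edgeR), an auxiliary subunit of GABA-B receptors. None was called for PLX5622, for the deletion or for either interaction, in edgeR. At an unadjusted p under 0.05 there were 23 for PLX5622 (7.52%, against 5.45% of all), 10 for nIL-1R1-/- (3.27% against 2.31%), 30 for RSD by diet (9.80% against 8.73%) and 17 for RSD by genotype (5.56% against 4.86%).

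In the diet experiment, 8 of the 306 were called higher and 4 lower, against 2.54% and 1.75% of all, so the list did not stand apart from all genes. Most of these calls were in CA1-like and CA2/3-like nuclei, where 15.5% and 11.6% of all genes were called in either direction. Whether they hold in the deeper clusters or with thinned nuclei was not tested. Gphn, the scaffold protein gephyrin that holds GABA-A receptors at inhibitory synapses, rose in 4 classes. In CA1-like nuclei it was at 961 CPM in Control-Vehicle and 2024 in Stress-Vehicle, at 1224 CPM in Control-PLX5622 and 2056 in Stress-PLX5622, and between 906 and 1160 CPM in the genotype pools. Gphn was not confined to neurons. Its median was highest in astrocyte-like nuclei (2808 CPM) and lowest in neurogliaform-like INH (1042 CPM). Whether RNA from glia had a part in the rise was not tested. The change was 0.87 log2 in CA1-like (SE 0.13, adjusted p = 1.1e-06), 0.73 in CA2/3-like (adjusted p = 2.7e-04), 0.68 in subicular-like (adjusted p = 0.0258) and 0.67 log2 in Lhx6-like INH (adjusted p = 0.0311, edgeR). Gabbr1, a subunit of the GABA-B receptor, rose by 0.54 log2 in CA1-like (adjusted p = 0.00671) and 0.50 log2 in CA2/3-like nuclei (adjusted p = 0.0221, edgeR). Slc12a5, the chloride exporter KCC2, rose in CA2/3-like nuclei (0.52 log2, adjusted p = 0.0255) and Hap1, a trafficking protein, in CA1-like nuclei (0.61 log2, adjusted p = 0.0413, edgeR). Kctd16 fell by 0.71 log2 in CA1-like, by 0.59 in CA2/3-like and by 0.63 log2 in DG-like nuclei (adjusted p = 3.8e-05, 9.6e-04 and 0.0167, edgeR), and Slc6a11, the GABA transporter of astrocytes, fell by 1.26 log2 in CA2/3-like nuclei (adjusted p = 0.0188, edgeR). Those Slc6a11 levels were low, at 21.3 and 9.26 CPM in the vehicle pair and 9.51 and 3.38 CPM in the PLX5622 pair. Its median in astrocyte-like nuclei was 179 CPM, and whether the CA2/3-like values were background from them was not tested.

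Genes with a like pattern were sought over 17 classes and unnamed clusters, among 10037 genes, as a description with Pearson's r of log2(CPM + 1). These points share their libraries. The nearest to Gabra2 were D430019H16Rik (r = 0.91), Cerkl (0.88) and Camk2a (0.87), and to Gabra3 were Asic2 (0.92), Elavl4 (0.91) and Cntn4 (0.88). Gabra4 was nearest to Cfap74 (0.90), Nedd4l (0.89) and Ppp1r1a (0.88), all highest in DG-like nuclei, and Gabra5 to Rnf165 (0.91), Klhl3 (0.91) and Lmo7 (0.89). Gabrb1 was nearest to Rexo4, Nrcam and Ncan (0.86 each), Gabrb2 to Zmat4 (0.92) and Pknox2 (0.89), and Gabrd to Cemip (0.83), Kcng3 (0.80) and Cyp46a1 (0.80). Among the members themselves, Gabra2 and Gabrb1 had r = 0.74, Gabra2 and Gabra4 0.72, Gabra4 and Gabrd 0.65, and Gabra2 and Gabra3 -0.07.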

How the data were processed

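The authors deposited UMI counts per nucleus and gene for each of 8 pools, aligned to mm39 with the Parse pipeline (annotation release not given in the sources used here), and the labels name Seurat 4.1.1. The 4 sublibraries each held nuclei of every pool, so pools and not sublibraries were the samples. Nuclei over 20% mitochondrial UMIs were left out. Nuclei were clustered in scanpy 1.11.5 (2000 variable genes, 30 principal components, 20 neighbours, leidenalg 0.10.2 at a resolution of 1.0) and named by markers, with a least score of 0.55 settled after the clusters were seen. Doublets were kept. The counts were summed per pool and class and tested in edgeR 4.0.16 (quasi-likelihood test, TMM, filterByExpr, pair of pools and RSD as terms, 3 residual degrees of freedom, 2 for interactions and for an RSD term per experiment), adjusted by Benjamini-Hochberg over all genes of a class. DESeq2 1.42.0, no filter, other cell filters, resolutions and left-out pools or pairs of pools were alternatives. Fits with pools or pairs left out kept fewer residual degrees of freedom than those stated. So did an interaction set against the pair of the same experiment alone. The edgeR fit was also run on counts simulated for DG-like and neurogliaform-like nuclei. Those counts held no differences between pairs or in the make-up of a class, so the run does not cover such differences.

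Pairs share diet or genotype by the labels. Deviations of paired pools correlated at -0.05 to 0.28, with every pair over 0.1 in CA1-like and DG-like nuclei alone. Classes were ranked by mean CPM and neighbours compared by an exact sign-flip permutation test over 8 pools, with 256 flips. Gene positions came from GENCODE vM39, in which 56017 of 56748 identifiers matched. Genes of like pattern were the 3 of highest Pearson's r for each member, and 1 gene named by this rule and 1 result of the list of GABA-related genes are not reported here. The other named combinations were those called or of lowest p. The members and lists were chosen with earlier results of these data known. Each pool holds 3 mice, so p-values measure the spread between pools of different experiments.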

Additional observations from a re-analysis of the deposited data

Results flagged for a closer look

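In 77 groups of 8 pools (7 genes in 11 classes), 5 had a pool far from the other 7 by Dixon's test, and chance gives about 1 in 20. Gabrd in DG-like nuclei was at 58.3 CPM in Control-PLX5622 (45 UMIs), with the next pool at 31.9 CPM. Gabra2 in deep-layer excitatory-like nuclei was at 208 CPM in Control-PLX5622 (54 UMIs), with the next at 147 CPM. Gabra5 in the same class was at 73.7 CPM in Stress-Vehicle (46 UMIs), below the next lowest at 151 CPM. Gabrd there was at 17.6 CPM in Stress-Vehicle (11 UMIs), with the next at 7.72 CPM. Gabrd in Vip/Cnr1-like INH was at 16.0 CPM in Control-PLX5622 (4 UMIs), with the next at 5.61 CPM.

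In classes too uneven between pools to be tested, 3 levels lay above every pool of the tested classes, with all pools summed. Slc17a6 excitatory-like nuclei (536, of which 225 came from 1 pool) held Gabra4 at 342 CPM (731 UMIs, 95% Poisson lower bound 318), against at most 247 CPM in the tested classes, and Gabrd at 86.1 CPM (184 UMIs, lower bound 74.1), against at most 58.3 CPM. Cerebellar granule-like nuclei (126, of which 79 came from 1 pool) held Gabrd at 118 CPM (20 UMIs, lower bound 72.0). The intervals cover counting error only.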

How the results depend on the processing

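For RSD over 4 pairs, 0 combinations were called without the replicate block, and 1 under DESeq2 and 2 with no filter on low counts (Gabrb2 in DG-like and Gabrb1 in CA2/3-like nuclei), and an RSD term for the diet experiment alone gave 10. Leaving out each of the 4 pairs in turn gave 0 calls for RSD. For PLX5622 and nIL-1R1-/- each pool of their own experiment was left out, also with 0 calls. For both interactions each pair of the other experiment was left out, again with 0 calls. All these fits kept fewer residual degrees of freedom than the fits over 8 pools, so their 0 calls are weaker evidence. No single pool was left out for RSD or the interactions. In the order of classes each pool was left out, with 0 differing neighbours, where 7 pools cannot reach the p that 8 can. The 10 calls of the diet experiment were 5 with nuclei thinned to 500 UMIs and 4 at a higher Leiden resolution. No CA2/3-like class was tested at that resolution, since it held 18 nuclei in Stress-PLX5622. There were 6 calls with the deeper clusters in place of the DG-like, CA1-like and CA2/3-like classes (4 of the 8 calls in these, and both subicular-like calls, which that setting does not touch). The order of classes had 15 differing neighbours, and 0 when thinned. Gabrb1 had the largest share in 10 classes by UMIs and 3 per kb of gene span. The pathway list gave 2 calls over 5 comparisons, 6 under DESeq2 and 10 with no filter. Direction turned for Gabra4 in CA1-like (0.01 log2) and Gabrb2 in OPC-like nuclei (0.04) for RSD when thinned, for Gabra5 in OPC-like nuclei with nIL-1R1-/- without Con-nIL-1R1-/- (-0.03, with a range of -0.03 to 1.32 over the pools left out), and for Gabra3 in CA1-like (0.06) and subicular-like nuclei (0.41) in the diet experiment at the higher resolution. The cause was not tested. Gabrd moved from DG-like to neurogliaform-like INH as highest class when thinned, with doublets left out and without 3 of the pools in turn, and Gabra3 from Lhx6-like INH to OPC-like nuclei by the mean over nuclei of their own CPM. Depth limits the PLX5622 pools most.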

Other observations

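Medium spiny-like nuclei, 267 in all with 243 from Stress-IL-1R1+/+, held Gabra4 at 234 CPM (183 UMIs, 95% Poisson interval of 201 to 270.0) and Gabrd at 42.1 CPM (33 UMIs, 29.0 to 59.2). Gabra5 there was at 35.7 CPM (28 UMIs, 23.8 to 51.7) and Gabrb1 at 500.4 CPM (392 UMIs, 452 to 552). With nearly all nuclei from 1 pool, no comparison was made.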
